A study of Mus musculus with 10 samples.

Results

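Gene expression was compared between embryonic and adult lenses of wild-type mice, on 5 of the 10 arrays of a study of the transcription factor gene Klf4 in the lens. One group held 3 arrays of lenses at embryonic day 16.5 (E16.5), each from an independent RNA preparation of lenses pooled from 5 embryos. The other held 2 arrays of lenses from young adults at postnatal day 56 (PN56), each from an independent preparation of lenses pooled from 3 mice. Both groups were labelled wild type, whole lenses were dissected, no agent is named, and the labels name neither strain nor sex. The remaining 5 arrays, of lenses with a conditional null allele of Klf4, were not compared and entered the fit only for the estimate of spread. The members were the genes with a probe set of 1 gene symbol, 18193 in all, each read from its brightest probe set, and 13440 of them passed a filter on low signal and were tested.

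The lens is a closed body of epithelial origin. A layer of epithelial cells covers its front, and cells at its equator leave the cell cycle, elongate into fibre cells, fill with crystallins and then lose their nuclei and organelles, so that old fibres stay in the core for life. The fetal lens grows fast and is wrapped in a net of blood vessels, the tunica vasculosa lentis, which regresses after birth. The adult lens has no vessels, adds fibres slowly at its surface and lives on the aqueous humour.

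Each value is a linear signal that the authors' software scaled to 500, and differences are PN56 minus E16.5 in log2(signal + 16), which understates the change of dim genes. Adjusted p-values are from limma with Benjamini-Hochberg adjustment over all 13440 genes, and "rose" and "fell" are used for genes with an adjusted p under 0.05. Unless stated, each gene named as rising or falling kept that call on the signals as deposited and after quantile normalization, median centring and cyclic loess, 4 scalings in all. Counts over a list of genes are of calls on the signals as deposited, and the number that kept the call under all 4 scalings stands beside a count wherever it is smaller. Median signals were 63.0 to 76.6 on the E16.5 arrays and 104.8 and 108.6 on the PN56 arrays. The 18 probe sets of the hybridisation spikes were higher at PN56, by 0.315 to 1.352 (median 0.954), and the 24 of the poly-A spikes were lower there (median -3.232), with 6381, 4908 and 7005 at E16.5 against 12.6 and 2.6 at PN56 for the dap 3′ set. Age and sample preparation therefore cannot be told apart on these arrays. The ratio of the 3′ to the 5′ probe set of Actb was 1.36 to 1.58 at E16.5 and 1.79 and 1.88 at PN56. That of Gapdh went the other way, with 0.825, 0.812 and 0.862 at E16.5 and 0.709 and 0.728 at PN56. The lens's own markers were bright on all 5 arrays, as given gene by gene for the crystallins.

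At PN56, 3357 of 13440 genes were higher (25.0%) and 4126 were lower (30.7%), 7483 together (55.7%). The 2 PN56 arrays lay above all 3 E16.5 arrays for 4488 genes (33.4%) and below them for 4976 (37.0%), 9464 together (70.4%). A call in the same direction under all 4 scalings was found for 2915 higher genes (21.7%) and 3434 lower ones (25.6%). The median difference over all genes was -0.043 as deposited and -0.138, 0.101 and -0.068 after quantile normalization, median centring and cyclic loess. Shifting each array to its hybridisation spikes, an alternative chosen after seeing the data, moved that median to -0.937 and gave 903 genes higher and 8088 lower. Counts over lists stand beside these shares, and a list whose shares are close to them is like all genes. Changes given here are relative to the other genes of the array. The lower and upper quartiles of the difference were -0.716 and 0.658. Among called genes, 1945 were higher (14.5%) and 2220 lower (16.5%) by at least 1, and 73 (0.543%) and 63 (0.469%) by at least 4. Genes with a mean signal under 200 were called higher in 22.6% and lower in 15.6% of cases, against 33.3% and 41.0% of those at 2000 or more. Of 3749 called genes with further probe sets above the filter, 1509 (40.3%) had one of opposite sign, and for 558 (14.9%) that set was itself called. When all probe sets of a gene were averaged, the calls given for Atf4, Bmpr1b, Cdkn1a, Efnb2, Fzd3, Mycn and Rps3 were lost.

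**Figure D1:**
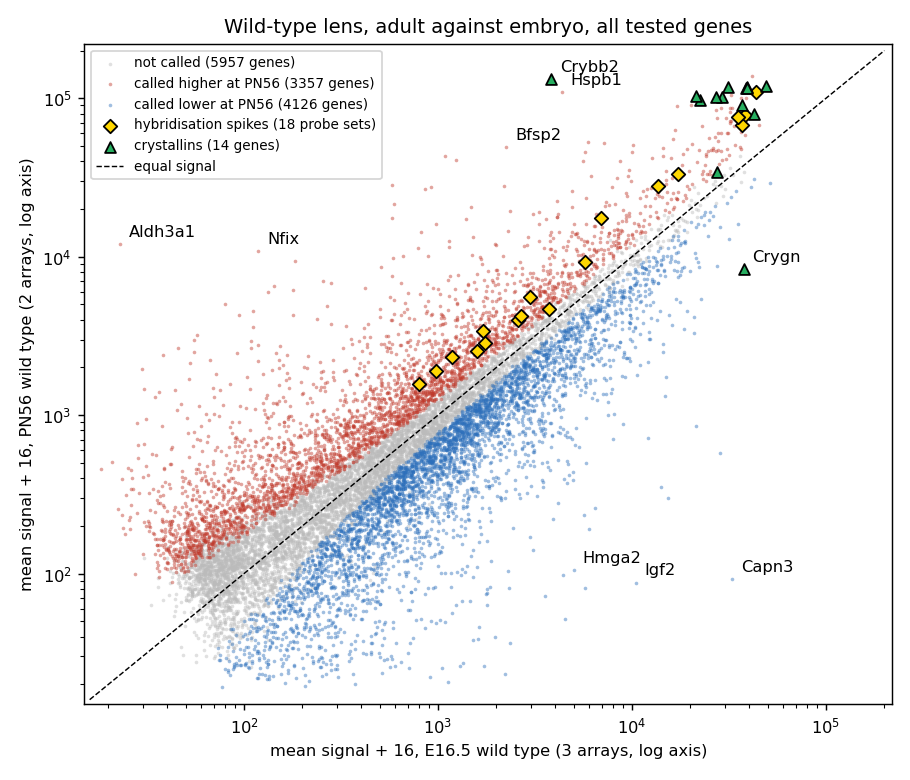
Mean signal of each tested gene at PN56 (vertical) against its mean at E16.5 (horizontal), both on log axes, with genes called higher in red, lower in blue and others in grey, the 18 hybridisation spike probe sets as gold diamonds and the 14 crystallin genes as green triangles; 16 is added to each mean. Of 13440 genes, 3357 lie in red above the line of equality and 4126 in blue below it.

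The 15 largest rises included genes of the matrix, of aldehyde and water handling and of phototransduction. Aldh3a1, an aldehyde dehydrogenase known as an abundant protein of the cornea, had signals of 7.8, 5.1 and 8.2 at E16.5 and 13108 and 10951 at PN56. It was at background in every embryonic pool and bright in both adult pools, a rise of 9.03 (SE 0.22, adjusted p = 7.2e-11). Nfix, a transcription factor of the nuclear factor I family, had signals of 76.5, 133 and 97.7 at E16.5 and 11356 and 10197 at PN56 and rose by 6.54 (SE 0.30, adjusted p = 6.6e-09). Tcp11, a gene best known from the testis, had signals of 706, 605 and 379 at E16.5 and 25629 and 31360.4 at PN56, a rise of 5.66. The matrix genes were Efemp1, which codes for fibulin-3, Fmod, which codes for the small proteoglycan fibromodulin, and Sbspon. Efemp1 signals were 37.9, 107 and 46.1 at E16.5 and 4459 and 5599 at PN56, a rise of 6.08, and Fmod rose by 5.87. Sbspon signals were 16.6, 17.4 and 32.2 at E16.5 and 2295 and 2470.1 at PN56. Il33, an alarm cytokine stored in nuclei, had signals of 32.9, 36.1 and 20 at E16.5 and 2519 and 2718 at PN56 and rose by 5.87. Rgs4, which shortens G-protein signals, rose by 5.68, and Nrg4, a ligand of the ErbB receptors, by 5.61. Aqp5, a water channel of the lens fibre membrane, is described with the fibre genes, and Gnat1, the rod transducin, with the markers of other tissues. The remaining rises were Ttr, the thyroxine carrier transthyretin (5.64), Fam107a (5.76), Tmem178 (5.72) and 4931428L18Rik (5.53). In all 15 the lowest PN56 array was above the highest E16.5 array, which the choice of genes required.

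The 15 largest falls were led by a protease of the lens and by genes of fetal growth and blood. Capn3, the calpain that in the rodent lens is made as the variant Lp82, had signals of 30793, 30261 and 36835 at E16.5 and 95.5 and 56.2 at PN56. The adult signals were close to background, and it fell by 8.501 (SE 0.16, adjusted p = 9.2e-12). Igf2, the fetal growth factor, had signals of 11283, 11482 and 8570.4 at E16.5 and 10.1 and 134 at PN56, and it fell by 7.38 (SE 0.49, adjusted p = 1.3e-07). Rian, a non-coding RNA expressed from the maternal copy of an imprinted cluster, had signals of 5106, 3749.9 and 4582 at E16.5 and 53.2 and 18.7 at PN56 and fell by 6.51. Hmga2, a chromatin protein of growing fetal cells, had signals of 5519.8, 4740.3 and 4704 at E16.5 and 85.6 and 93 at PN56 and fell by 5.57. The red cell genes Hbb-y and Alas2 are described with their marker list. Hbb-b2, an adult globin gene, had signals of 1369.5, 1002 and 967 at E16.5 and 2.5 and 6.6 at PN56, and its probe set can pick up near-identical adult globin copies. Cd34 and Ets1, both expressed by vessel endothelium, fell by 6.10 and 5.62. Fscn1, which bundles actin in cell protrusions, had signals of 15675, 15832 and 14681 at E16.5 and 324 and 248 at PN56 and fell by 5.69. Ednrb, the endothelin B receptor, fell by 5.58, Actn2, an actin cross-linker of muscle, by 5.58, and Gask1b and Cyyr1 by 6.15 and 6.10. Pik3cd, a catalytic subunit of phosphoinositide 3-kinase, had signals of 26800.0, 23302 and 35113 at E16.5 and 527 and 592 at PN56; it fell by 5.61, which was not called when all its probe sets were averaged.

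**Figure D2:**
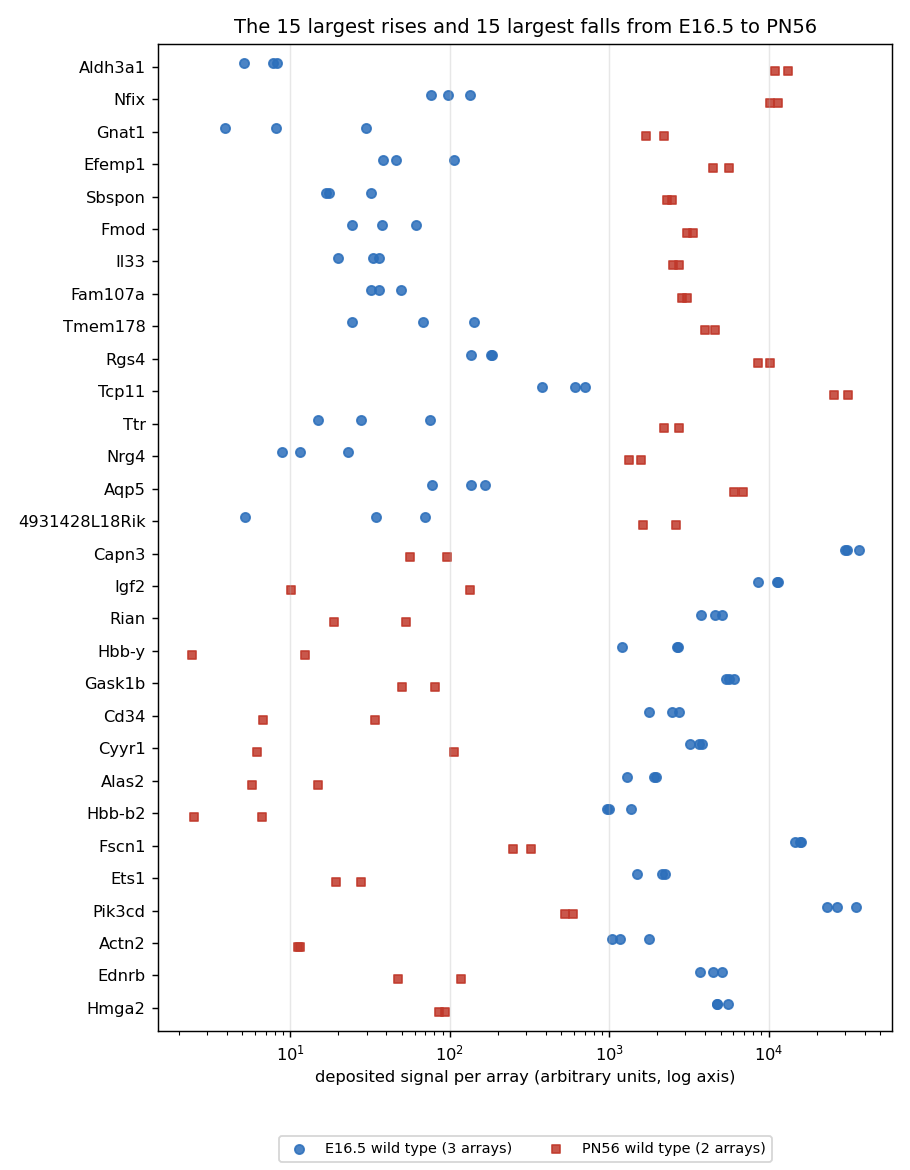
Signal on each of the 3 E16.5 and 2 PN56 wild-type arrays (points, log axis) for the 15 genes with the steepest rise and the 15 with the steepest fall, taken from called genes with no overlap of arrays. Aldh3a1 goes from 5.1 to 8.2 on the E16.5 arrays to 13108 and 10951 on the PN56 arrays, and Capn3 runs the other way.

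The crystallins are the bulk of lens protein. The alpha crystallins are small heat shock proteins that keep others in solution, and the beta and gamma crystallins are a family of compact structural proteins. All 8 tested alpha and beta crystallin genes rose, with a median of 1.91 against -0.043 for all genes, and 6 kept the call under the 4 scalings. Crybb2 moved far more than the others. Its signals were 3272, 2946 and 5209 at E16.5 and 122868 and 140664 at PN56, a rise of 5.15 (SE 0.20, adjusted p = 2e-09). Cryaa signals were 21881, 20822 and 24306 at E16.5 and 93649 and 99905 at PN56, a rise of 2.12 (SE 0.12), and those of Crybb1 were 19409, 20676 and 24172 at E16.5 and 93741 and 113138 at PN56, a rise of 2.27 (SE 0.13). Cryba1, Cryba2 and Crybb3 rose by 1.92, 1.82 and 1.91. Cryab and Cryba4 rose by 1.29 and 1.30 as deposited but lost the call after quantile normalization, at -0.11 and 0.05. These are among the brightest features of the arrays, and the 4 probe sets of the cre hybridisation spike, also bright, were 1.09 higher at PN56. Measured from that spike, the rises were 4.06 for Crybb2, 1.03 for Cryaa and 0.20 for Cryab. Of 134 genes with a mean signal of at least 20000 at E16.5, 74 were called higher and 33 lower. The same limit therefore holds for every other bright gene named here.

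The gamma crystallins, which fill the dense core fibres laid down early, moved less uniformly. Of 6 tested, 4 rose, Crygn fell and Cryga did not pass. Crygs signals were 37415, 37263 and 42913 at E16.5 and 105709 and 124688 at PN56, a rise of 1.55, and Crygb and Crygd rose by 1.57 and 1.60. Crygf rose by 0.90. None of these 4 rises held under all 4 scalings: after quantile normalization they were 0.20 for Crygb, 0.19 for Crygd, -0.34 for Crygf and 0.15 for Crygs. Cryga had signals of 25565, 26489 and 30632 at E16.5 and 31217 and 37103 at PN56 and a difference of 0.31 (adjusted p = 0.077), which was -0.25 after quantile normalization. Crygn, a member with features of both the beta and the gamma crystallins, went the other way. Its signals were 35850.4, 36321 and 40533 at E16.5 and 7097 and 9649 at PN56, and it fell by 2.18 (SE 0.15, adjusted p = 2.1e-07), also under all 4 scalings. Crygc and Cryge were not analysed here.

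The promoters of a strong, a middling and a falling member are shown so that the window before the start can be set beside these values. They are the 150 bases before the start from RefSeq (GRCm38.p6), printed on the gene's strand, for Cryaa (chr17:31677781-31677930, plus strand), Crybb2 (chr5:113070118-113070267, minus), Crygd (chr1:65063441-65063590, minus) and Crygn (chr5:24757849-24757998, minus). Capitals mark TATATA, a form of the TATA box, and TGCTGA, the core of the element bound by the lens factor MAF, searched on both strands. Of 14 tested crystallin genes 13 had a window.
Cryaa: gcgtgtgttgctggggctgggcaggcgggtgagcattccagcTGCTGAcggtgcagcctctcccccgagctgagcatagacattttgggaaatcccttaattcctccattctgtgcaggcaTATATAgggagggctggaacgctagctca
Crybb2: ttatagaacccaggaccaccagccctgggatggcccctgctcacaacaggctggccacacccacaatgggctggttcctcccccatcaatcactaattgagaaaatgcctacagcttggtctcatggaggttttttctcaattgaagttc
Crygd: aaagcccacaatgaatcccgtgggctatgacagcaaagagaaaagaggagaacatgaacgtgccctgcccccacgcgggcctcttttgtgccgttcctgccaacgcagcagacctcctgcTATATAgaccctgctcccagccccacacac
Crygn: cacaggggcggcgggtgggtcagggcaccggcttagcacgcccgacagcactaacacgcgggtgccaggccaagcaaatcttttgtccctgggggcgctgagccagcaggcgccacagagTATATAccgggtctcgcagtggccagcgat
TATATA lay 29 to 24 bases before the start in Cryaa and 30 to 25 before it in Crygd and Crygn. Crybb2, the gene with the steepest rise of the family, holds neither run of letters in the window printed. In the 250 bases before the start, TATATA was in 6 of 13 crystallin windows (46.2%) against 6.19% of 27025 genes, and TGCTGA in 9 of 13 (69.2%) against 18.0%. The runs were chosen after these windows had been seen, and a match is not a measured site.

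The membrane genes of the fibre split. Aqp5, a water channel, had signals of 77.7, 136 and 166 at E16.5 and 6869 and 6091 at PN56, with both adult arrays above every embryonic one, and rose by 5.56 (SE 0.35, adjusted p = 7.3e-08). Mip, the fibre water channel aquaporin 0, had signals of 29761, 29746 and 33572 at E16.5 and 58752 and 62564 at PN56, and Lim2, the membrane protein MP20, had 29959.6, 29878 and 35805 at E16.5 and 66306 and 73469.6 at PN56. Their rises of 0.97 and 1.14 were not called under all 4 scalings. Cdh2, the N-cadherin that joins fibres, had signals of 20449, 17811 and 21593 at E16.5 and 7709 and 8399 at PN56 and fell by 1.30. Gje1, a connexin-like gene needed for a normal lens, had signals of 21027, 22426 and 20639.9 at E16.5 and 750.0 and 915 at PN56 and fell by 4.66. Slc16a12, a creatine transporter of lens, fell by 1.28. Gja3, the fibre connexin 46, and the adhesion gene Ncam1 fell by 0.41 and 0.57 on their brightest probe sets, but further probe sets of both were called the other way and neither held under all 4 scalings. Without replicate 1 of PN56 neither was called, and Ncam1 was not called without replicate 2 or 3 of E16.5. Of 8 tested genes 3 rose and 5 fell, 1 and 3 of them under all 4 scalings.

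The beaded filament, a cytoskeleton of lens fibres, was higher in both of its subunits. Bfsp2, or phakinin, had signals of 2216, 2333 and 2137 at E16.5 and 48237 and 49818 at PN56, a rise of 4.45 (SE 0.10, adjusted p = 4.7e-11), and Bfsp1, or filensin, had 29785, 31569.5 and 36285 at E16.5 and 99782 and 109756 at PN56, a rise of 1.69. Both adult arrays were above every embryonic one for each gene. Ahnak, a giant scaffold under the membrane, rose by 2.92, Grifin, a galectin-related soluble protein of lens, by 2.39, and the intermediate filament gene Vim by 1.45. Bfsp1 and Vim are bright at both ages, and their rises were 0.80 and 0.56 after the shift to the hybridisation spikes. Sptan1, the alpha spectrin, Tdrd7, an RNA granule protein, and Tmod1, which caps actin in the spectrin network, rose by 1.05, 0.90 and 0.86. Against these, Caprin2, an RNA-binding protein of fibres, had signals of 18237, 18286 and 21204 at E16.5 and 4623 and 4481 at PN56 and fell by 2.07, and the adaptor Ank2 fell by 1.86. Sptbn1, the beta spectrin, fell by 0.36 but was not called under all 4 scalings or without replicate 1 of PN56. In all, 8 of 11 tested genes rose and 3 fell, 2 of the falls under all 4 scalings, with a median of 1.05.

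**Figure D3:**
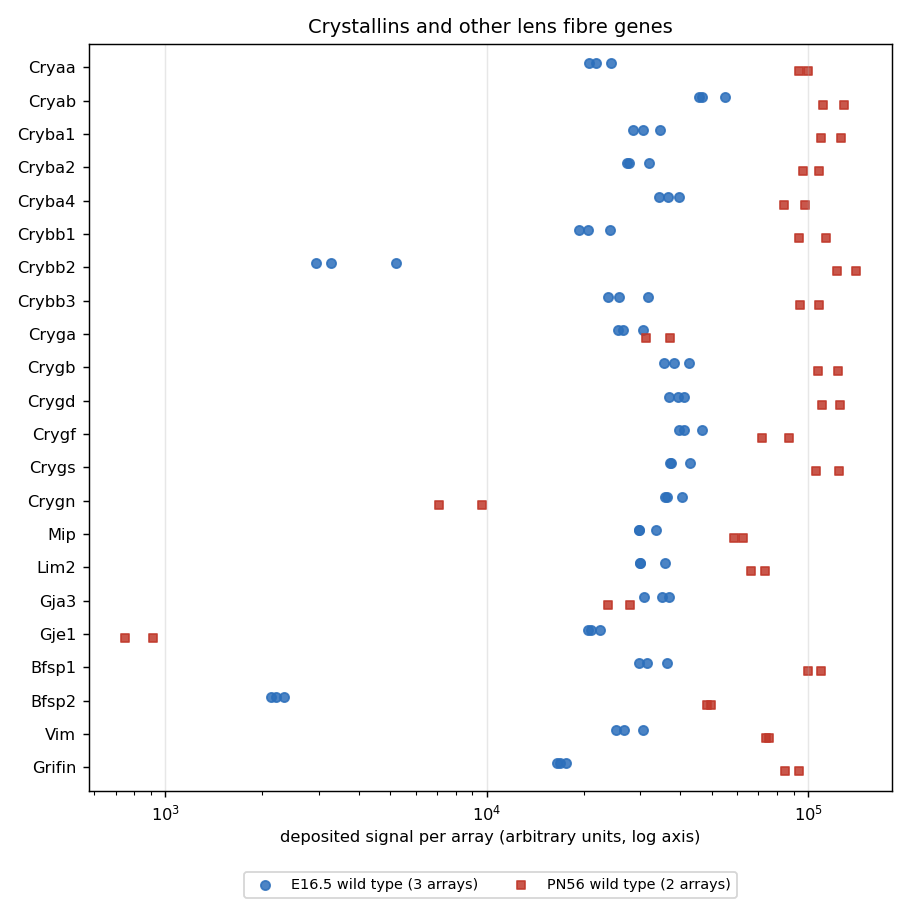
Deposited signal (arbitrary units, horizontal, log axis) of the 14 crystallin genes and 8 other fibre genes on each array, with the 3 E16.5 arrays as blue circles and the 2 PN56 arrays as red squares. Crybb2 lies at 2946 to 5209 at E16.5 and at 122868 and 140664 at PN56, Bfsp2 at 2137 to 2333 and at 48237 and 49818, while both PN56 arrays lie below the E16.5 arrays for Crygn, Gja3 and Gje1.

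Genes for the loss of nuclei and organelles went both ways. Dnase2b, the nuclease that clears DNA from fibres, had signals of 3553, 3411 and 2943 at E16.5 and 17908 and 14335 at PN56 and rose by 2.28 (SE 0.18, adjusted p = 4.7e-07). Fyco1, an autophagy adaptor mutated in cataract, rose by 0.94. Hsf4, the heat shock factor needed for that nuclease in the lens, had signals of 2572, 2149 and 2914 at E16.5 and 1174 and 1102 at PN56 and fell by 1.14. The nuclear lamins parted: Lmna rose by 1.496 and Lmnb1 fell by 2.30. Alox15, a lipoxygenase, fell by 2.37, and Bnip3, a mitophagy receptor, had a difference of -0.25 (adjusted p = 0.159). Of 9 tested genes 5 rose, 4 of them under all 4 scalings, and 3 fell. Beside the fall of Capn3, the broad calpain Capn2 had signals of 1853, 1759 and 1824 at E16.5 and 4838 and 4073 at PN56 and rose by 1.29, and Cast, the calpain inhibitor calpastatin, had 528, 408 and 531 at E16.5 and 2490.3 and 1780.2 at PN56 and rose by 2.08. Capn6 rose by 1.70. Capn5 and Capn10 fell by 1.56 and 1.74 on their brightest probe sets, with another probe set of each called higher. Of 9 calpain and calpastatin genes 3 rose, Cast among them, 3 fell and 3 did not pass.

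Of 17 lens transcription factor genes 6 rose, 8 fell and 3 did not pass, with a median of -0.51. Among the falls, Sox11, a factor of immature cells, had signals of 435, 1937 and 1119 at E16.5 and 76.4 and 4.4 at PN56 and fell by 4.53 (SE 0.66, adjusted p = 9.4e-05). Its 3 embryonic signals lie in the order of the summed retinal progenitor and neuron markers, which were 612, 9578 and 5316 on the same arrays, and the part of retinal RNA in its level was not tested. Gata3 had signals of 791, 769 and 790.0 at E16.5 and 124 and 100.1 at PN56 and fell by 2.65, and Sox1, which drives gamma crystallin genes, had 9725, 8488 and 8876 at E16.5 and 2224 and 2579 at PN56 and fell by 1.91. These 3 were lower on every adult array. Six3 and Pitx3, which act early in lens formation, fell by 1.52 and 1.23. Maf, which binds crystallin promoters, fell by 0.55 and Meis1 by 0.90, each with another probe set called higher. Among the rises, Pax6, needed for eye formation, had signals of 3573, 4564 and 3903 at E16.5 and 6406 and 6473 at PN56, a rise of 0.69, and Sox2 had 1611, 1838 and 1536 at E16.5 and 4046 and 4514 at PN56, a rise of 1.36. Rarb, a retinoic acid receptor, rose by 1.17, Meis2 by 1.11, Mab21l1 by 0.95 and Tfap2a by 0.88. Foxe3, which maintains the lens epithelium, had signals of 928, 684 and 1083 at E16.5 and 502 and 757 at PN56 and a difference of -0.51 (adjusted p = 0.087), which was -0.79 and called without replicate 2 of PN56. Prox1, needed for fibre elongation, had a difference of -0.19, not called, with another probe set called higher. Zeb2 had a difference of 0.32, not called, and another probe set called lower.

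Of 9 lens epithelium genes 4 were higher and 4 lower, and Foxe3, Pax6 and Tfap2a among them are transcription factor genes already given. Aqp1, the epithelial water channel, had signals of 271, 269 and 217 at E16.5 and 5235 and 4479 at PN56 and rose by 4.19 (SE 0.17, adjusted p = 2.3e-09). Cdh1, the E-cadherin of the epithelial layer, had signals of 7124, 5472 and 6771 at E16.5 and 2931 and 3172 at PN56 and fell by 1.07, and Pdgfra, the growth factor receptor of these cells, fell by 1.04. Gja1, outside the rule for named genes, was higher, with signals of 7637, 11283 and 7601 at E16.5 and 16069 and 17365 at PN56. The list as a whole thus had no single direction. Since whole lenses were measured, a change in cell number and a change in RNA per cell cannot be told apart, here or for any other cell type. Klf4, the gene the study removed, had wild-type signals of 775, 1015 and 428 at E16.5 and 157 and 214 at PN56, and it fell by 1.84 (adjusted p = 0.00029). Both adult arrays were below every embryonic one. Of 12 Kruppel-like factor genes 3 rose and 6 fell, 5 of the falls under all 4 scalings: Klf2 and Klf7 fell by 1.63 and 1.49, and Klf9 and Klf6 rose by 1.59 and 0.60. Klf5, the epithelial relative of Klf4, had a difference of 0.20 (adjusted p = 0.665).

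Genes of cell division fell. All 21 tested mitosis genes were lower, 21 of 21 under the 4 scalings, with a median of -2.21, where 30.7% of all genes were lower. Mki67, which codes for the Ki-67 antigen of cycling cells, had signals of 528, 1003 and 878 at E16.5 and 133 and 127 at PN56 and fell by 2.44 (SE 0.27, adjusted p = 8.2e-06). Cdk1, the kinase that starts mitosis, had signals of 1654, 1766 and 1415 at E16.5 and 143 and 139 at PN56, and Top2a, which untangles chromosomes, had 1372, 2145 and 2086 at E16.5 and 153 and 248 at PN56. They fell by 3.37 and 3.13. Ccnb2, a cyclin partner of Cdk1, had signals of 534, 704 and 574 at E16.5 and 126 and 81.9 at PN56 and fell by 2.39; it lies outside the rule for named genes and was chosen for its promoter after its values were seen. Bub1, of the spindle checkpoint, Birc5, which codes for survivin, and the cyclin gene Ccna2 fell by 4.53, 3.41 and 2.30. The PN56 signals of Cdk1 and Top2a were above the filter's 45.1, while those of Bub1, at 10.8 and 9.2, were below it and close to background.

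The promoters of Cdk1, Ccnb2 and Top2a are shown because mitosis genes moved together. They are the 200 bases before the start from RefSeq (GRCm38.p6) on each gene's strand, at chr10:69352913-69353112, chr9:70421555-70421754 and chr11:99024190-99024389, all on the minus strand. Capitals mark CCAAT, the box bound by NF-Y, and TTTGAA, one form of the cell cycle homology region, with their reverse complements ATTGG and TTCAAA.
Cdk1: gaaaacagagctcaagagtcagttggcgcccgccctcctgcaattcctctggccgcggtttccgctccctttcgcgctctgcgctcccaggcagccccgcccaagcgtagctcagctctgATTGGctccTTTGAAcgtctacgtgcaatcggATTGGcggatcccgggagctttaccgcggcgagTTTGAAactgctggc
Ccnb2: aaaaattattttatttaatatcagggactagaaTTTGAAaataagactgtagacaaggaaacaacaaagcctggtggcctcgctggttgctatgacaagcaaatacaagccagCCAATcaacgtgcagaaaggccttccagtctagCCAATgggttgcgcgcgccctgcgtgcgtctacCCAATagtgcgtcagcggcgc
Top2a: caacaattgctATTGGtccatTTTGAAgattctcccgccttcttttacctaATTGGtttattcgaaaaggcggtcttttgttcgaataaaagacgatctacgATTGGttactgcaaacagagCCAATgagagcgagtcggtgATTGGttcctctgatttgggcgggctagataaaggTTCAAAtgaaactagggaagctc
Top2a holds 5 CCAAT boxes and Ccnb2 holds 3 in the same orientation. In the 250 bases before the start CCAAT was in 15 of 17 mitosis windows (88.2%) against 37.5% of 27025 genes, and TTTGAA in 8 of 17 (47.1%) against 18.3%. These runs too were chosen with the windows in view, and they do not overlap one another in letters.

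DNA replication genes fell in 15 of 20 cases, 14 of them under all 4 scalings, and rose in 1, with a median of -1.17. Rrm2, a subunit of the enzyme that makes deoxynucleotides, had signals of 1999, 2309 and 1977 at E16.5 and 263 and 287 at PN56 and fell by 2.86. Mcm5, Mcm4 and Mcm7, of the replicative helicase, fell by 2.29, 2.25 and 1.31, and Pcna, the sliding clamp, by 0.86. Mcm2 fell by 0.59 but was not called under all 4 scalings, nor without replicate 1 of either age. Of 16 tested regulators of the G1 phase 3 rose, 11 fell and 2 did not pass. E2f1, an activator of S-phase genes, had signals of 549.6, 571 and 582 at E16.5 and 31.2 and 35.2 at PN56 and fell by 3.57. The inhibitor Cdkn1b, or p27, had signals of 4431, 4771 and 4638 at E16.5 and 577 and 951 at PN56 and fell by 2.61, and Cdkn1c, or p57, the main inhibitor of newly formed fibres, had 26531, 26777 and 28740.3 at E16.5 and 8456 and 8887 at PN56 and fell by 1.66. The 3 rises were Cdkn2b, or p15, Cdkn2c, or p18, and Rbl2, a relative of the retinoblastoma gene. All 3 code for inhibitors of the cycle, as do Cdkn1b and Cdkn1c, which fell. Cdkn2b had signals of 92.9, 19.3 and 11.8 at E16.5 and 749.9 and 628 at PN56 and rose by 3.89, Cdkn2c had 730.1, 706 and 675 at E16.5 and 3209 and 2743 at PN56 and rose by 2.05, and Rbl2 rose by 0.71, or had 0.61, not called, without replicate 2 of PN56. Cdkn2b and Rbl2 lie outside the rule for named genes and were chosen after their values were seen. Cdkn1a, or p21, fell by 0.91, the cyclin gene Ccnd2 by 1.43, and Ccnd1 had a difference of -0.27 (adjusted p = 0.237).

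Chromatin and splicing genes were mostly lower. Of 12 tested genes for DNA methylation and chromatin none rose and 9 fell, with a median of -1.27. Uhrf1, which brings the maintenance methylase to new DNA, had signals of 1291, 1539 and 1117 at E16.5 and 89.4 and 92.2 at PN56 and fell by 3.63. The methylases Dnmt3a and Dnmt1 fell by 2.79 and 1.27, Smarca4, the motor of a remodelling complex, by 1.67, and Ezh2, the Polycomb methylase, by 1.39. Of 15 splicing genes 11 fell and 1 rose. U2af1, which reads the 3′ splice site, had signals of 9062, 8068 and 8559 at E16.5 and 2837 and 2533 at PN56 and fell by 1.67, and Hnrnpa1 fell by 0.84. Srsf1 fell by 0.99 and Ptbp1 by 1.24, and the single rise was Hnrnpab, at 2.83. For each of these last 3 genes another probe set was called in the opposite direction.

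**Figure D4:**
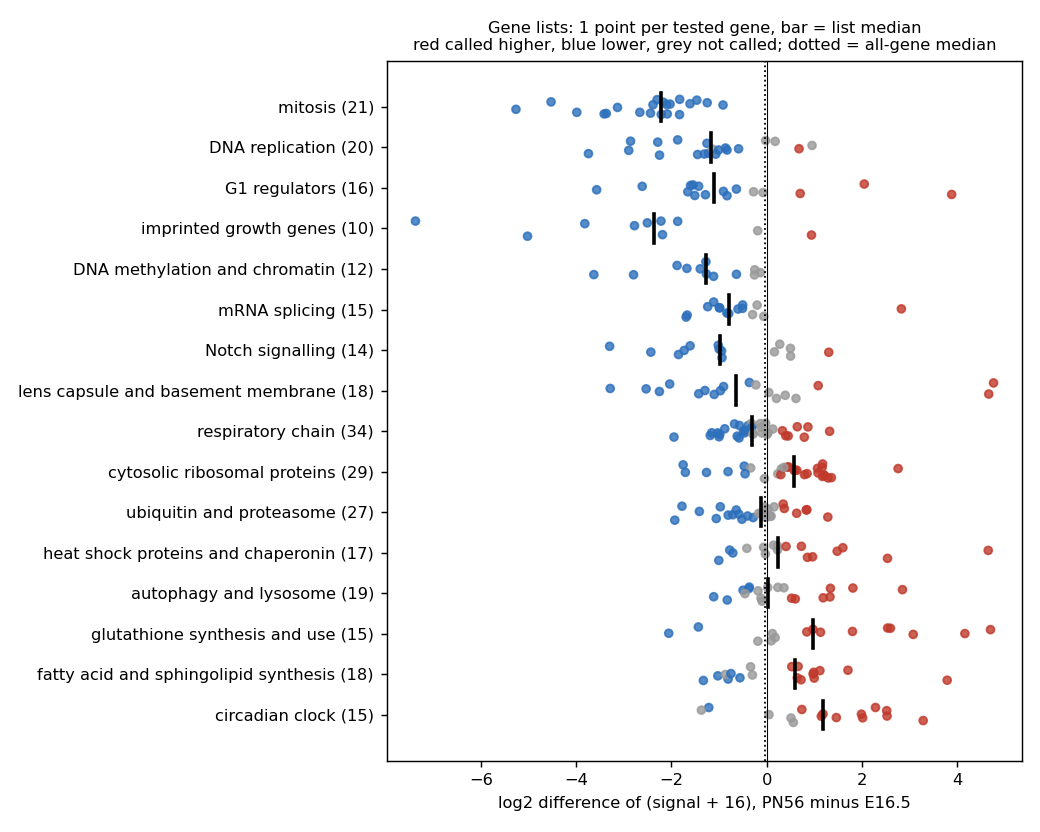
Difference between PN56 and E16.5 (log2, horizontal) for each tested gene of 16 gene lists, 1 point per gene, red where called higher and blue where called lower, with the list median as a bar and the all-gene median of -0.043 as a dotted line. All 21 mitosis points are called lower, and 10 of the 15 circadian clock points are called higher.

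Genes of fetal growth fell together with Igf2. Of 10 tested imprinted growth genes 8 fell, 1 rose and 1 did not pass, with a median of -2.36. Grb10, an adaptor that restrains insulin-like growth signals, had signals of 5539.5, 7324 and 5155 at E16.5 and 121 and 229.6 at PN56 and fell by 5.02 (SE 0.23, adjusted p = 6.4e-09). Peg3 had signals of 3886, 4892 and 5901 at E16.5 and 698 and 684 at PN56 and Mest had 7592, 7562 and 8299 at E16.5 and 1339 and 1387 at PN56, and they fell by 2.78 and 2.51. Dlk1 had signals of 337, 374 and 278 at E16.5 and 165 and 14.1 at PN56 and fell by 2.22, or by 3.51 without replicate 1 and 0.92 without replicate 2 of PN56. A second list, of fetal growth and RNA-binding genes, had 5 of 8 lower and none higher, Hmga2 among the falls. Igf2bp1, which binds Igf2 messages, had signals of 1094, 1176 and 1418 at E16.5 and 87.1 and 86.8 at PN56 and fell by 3.59, and Igf2bp3 fell by 2.25. Marcksl1, which binds actin and calmodulin in young cells, had signals of 13647, 15037 and 13709 at E16.5 and 239 and 430.0 at PN56 and fell by 5.39. Mycn, a transcription factor that drives growth of fetal tissues, fell by 1.78. Lin28b had signals of 139.7, 101 and 96 at E16.5 and 58.5 and 48.2 at PN56 and a difference of -0.87 (adjusted p = 0.09), not called.

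Glutathione is the main reducing agent of the lens. Of 15 tested genes for its synthesis and use 9 rose and 2 fell, each under all 4 scalings, with a median of 0.98. Gclc, the catalytic subunit of its rate-limiting enzyme, had signals of 1457, 1536 and 1914 at E16.5 and 3166 and 3251 at PN56 and rose by 0.98, and Gclm, the modifier subunit, rose by 0.85. Gpx3, the secreted peroxidase, had signals of 614, 728 and 716 at E16.5 and 6033 and 5781 at PN56 and rose by 3.08 (SE 0.13, adjusted p = 2.6e-09), and the transferase gene Gsto1 had 1293, 1151 and 1307 at E16.5 and 7690.0 and 7623 at PN56 and rose by 2.60. The 2 falls were Gpx1 and Gsr. Gpx1, the cytosolic peroxidase, had signals of 23789, 21317 and 22691 at E16.5 and 5271 and 5571 at PN56 and fell by 2.06, and the reductase gene Gsr had 971, 862 and 812 at E16.5 and 292 and 341 at PN56 and fell by 1.43. The other reducing systems were lower in 7 of 12 genes, 4 of them under all 4 scalings, and higher in 2. Txn1, or thioredoxin, had signals of 13052, 12106 and 12079 at E16.5 and 4101 and 5807 at PN56 and fell by 1.34, and the peroxiredoxin genes Prdx4 and Prdx3 fell by 1.25 and 0.74. Cat, or catalase, rose by 0.73.

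Aldehyde and sugar enzymes were mixed outside Aldh3a1. Tkt, the transketolase of the pentose phosphate pathway, had signals of 27110.2, 26375 and 28066 at E16.5 and 86589.6 and 80851 at PN56 and rose by 1.62. Aldh1a7 had signals of 18878, 16439.9 and 17343 at E16.5 and 5425 and 4918 at PN56 and fell by 1.76. Aldh1a1, which makes retinoic acid, had signals of 23691, 24156 and 24551 at E16.5 and 31323 and 28698 at PN56; its rise of 0.31 turned to -0.14 after quantile normalization and was not called without replicate 1 of PN56. Of 11 tested genes 4 rose and 4 fell, 2 of each under all 4 scalings. Glycolysis genes were also divided, with 5 of 17 higher, 4 of them under all 4 scalings, and 8 lower. Aldoc, an aldolase, had signals of 5975, 5186 and 6528 at E16.5 and 52936 and 52689 at PN56 and rose by 3.17. Pfkl, of phosphofructokinase, had signals of 7242, 6419 and 8241 at E16.5 and 1842 and 1435 at PN56 and fell by 2.15, and Pgam1, Ldha and Pkm fell by 1.10, 0.70 and 0.59. Among 34 respiratory chain genes 17 fell and 7 rose, and 12 and 4 of these kept the call under all 4 scalings. Ndufs3, of complex I, had signals of 10138, 10368 and 10611 at E16.5 and 2688 and 2674 at PN56 and fell by 1.95, Uqcrc1 and Uqcrfs1, of complex III, fell by 1.18 and 1.03, and Cox4i1, of complex IV, rose by 1.32.

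The hypoxia response, which the avascular lens runs at low oxygen, gave 6 of 14 higher and 4 lower, where 25.0% and 30.7% of all genes were. Vegfa, the vessel growth factor, had signals of 1692, 1839.6 and 1936 at E16.5 and 269.9 and 391 at PN56 and fell by 2.43, and Ddit4, an inhibitor of mTOR signalling, fell by 1.45. Ndrg1 had signals of 11135, 9563 and 9657 at E16.5 and 50639 and 50816 at PN56 and rose by 2.33, and P4ha2, a collagen prolyl hydroxylase, rose by 1.78. Among iron, copper and metallothionein genes 2 of 10 rose and 3 fell, 2 of the falls under all 4 scalings. Hmox1, the heme oxygenase, had signals of 3869, 4999 and 3434 at E16.5 and 23261 and 21466 at PN56 and rose by 2.46, and Fth1, the ferritin heavy chain, rose by 0.87. Slc40a1, the iron exporter ferroportin, had signals of 1429, 1793 and 974 at E16.5 and 428 and 214 at PN56 and fell by 2.10.

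Chaperone genes were higher in 8 of 17 cases, 7 of them under all 4 scalings, and lower in 3. Hspb1, a small heat shock protein related to alpha crystallin, had signals of 4445, 4494 and 4049 at E16.5 and 104158 and 114749 at PN56 and rose by 4.66 (SE 0.14, adjusted p = 4.1e-10). Hspa8, the constitutive Hsp70, had signals of 25612, 27664 and 32564 at E16.5 and 82424 and 90632 at PN56 and rose by 1.60, and its partner Dnajb1 rose by 1.48, while Dnaja1 fell by 1.003. Genes of the unfolded protein response gave 7 of 19 higher and 6 lower, where 25.0% and 30.7% of all genes were. Herpud1, of degradation at the endoplasmic reticulum, had signals of 770.4, 870.0 and 960.0 at E16.5 and 9986 and 10180.4 at PN56 and rose by 3.52, and Ddit3, the stress factor CHOP, rose by 2.02 and Creld2 by 1.89. The folding enzyme gene Pdia4 had signals of 2208, 2549.9 and 2703 at E16.5 and 376 and 276 at PN56 and fell by 2.88, and Atf4 fell by 0.44.

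In autophagy and lysosomes 7 of 19 genes rose and 5 fell, 3 of the falls under all 4 scalings, where 25.0% and 30.7% of all genes did. Sqstm1, the receptor p62, had signals of 2202, 2169.6 and 2271 at E16.5 and 7644 and 7994 at PN56 and rose by 1.81, Ctsl, a cathepsin, had 5996, 5313 and 5408 at E16.5 and 38109 and 42663 at PN56 and rose by 2.85, and Gabarapl1 and Lamp2 rose by 1.34 and 1.33. Of 27 ubiquitin and proteasome genes 6 rose and 12 fell, 10 of the falls under all 4 scalings. Psmb2, of the proteasome core, had signals of 6486, 6296 and 5356 at E16.5 and 1418 and 1741 at PN56 and fell by 1.93, Psmc4, of its cap, fell by 1.78, and Psmd4, a ubiquitin receptor in the cap, rose by 1.29. Cytosolic ribosomal protein genes were higher in 18 of 29 cases and lower in 6, but 7 and 4 of those calls held under all 4 scalings. Rps3, Rpl7 and Rps2 rose by 1.17, 1.36 and 1.29 and are among the 7, and Rps6 had a difference of -0.05. Those 3 rises are of bright genes, and the bright cre spike was itself 1.09 higher at PN56. Among 12 translation factors 6 rose, 4 of them under all 4 scalings, and 4 fell. Eif4ebp1, which blocks the cap-binding factor, had signals of 2927, 2819.5 and 2604 at E16.5 and 508 and 603 at PN56 and fell by 2.30, and that factor's own gene, Eif4e, had 10759, 9745 and 10457 at E16.5 and 3428 and 3631 at PN56 and fell by 1.54. Eif3h and Eef2 rose by 1.43 and 0.85, and Eif4a1 fell by 1.003.

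The lens capsule, a thick basement membrane, is laid down by the epithelium and the young fibres. Of 18 tested genes 10 fell, 9 of them under all 4 scalings, and 3 rose, with a median of -0.63, and the collagen IV chains moved in both directions. Col4a3 had signals of 88.5, 58.6 and 81.1 at E16.5 and 2375 and 2559 at PN56 and Col4a4 had 235, 177 and 387 at E16.5 and 6556 and 7094 at PN56, rises of 4.77 and 4.67. Col4a6 had signals of 2713, 2837 and 3599 at E16.5 and 593 and 654 at PN56 and fell by 2.25. The most abundant chain in most basement membranes, Col4a1, had signals of 24126, 25769 and 31149 at E16.5 and 28964 and 26561 at PN56 and a difference of 0.05 (adjusted p = 0.779). Lama1, a laminin chain of early basement membranes, fell by 1.30. Of 19 other collagen and elastic fibre genes 5 rose, 4 of them under all 4 scalings, and 7 fell. Ltbp2, found in the zonule fibres that hold the lens, had signals of 16.5, 24.9 and 1.7 at E16.5 and 725 and 563 at PN56 and rose by 4.51, and Mfap2, a microfibril glycoprotein, had 9242, 9346 and 8366 at E16.5 and 896 and 829.8 at PN56 and fell by 3.36. Small leucine-rich proteoglycans gave 4 of 6 tested higher, 3 of them under all 4 scalings, and none lower, with 2 more below the filter. Prelp had signals of 16.5, 50.2 and 37.8 at E16.5 and 907 and 991 at PN56 and rose by 4.31, and Ogn rose by 0.92.

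Cell junction genes gave 4 of 13 tested higher, 1 of them under all 4 scalings, and 5 lower, Cdh1 and Cdh2 among the latter. A further 2 were below the filter, and among all genes 25.0% were higher and 30.7% lower. Ctnnd2, a catenin known from neurons, had signals of 5179.9, 5072 and 5989.9 at E16.5 and 1403 and 1462 at PN56 and fell by 1.90, Tjp1, of tight junctions, fell by 1.05, and Ctnna2 rose by 1.77. Ctnnb1, or beta-catenin, rose by 0.47 as deposited and stood at -0.03 after quantile normalization. Of 16 Eph receptor and ephrin genes 6 fell, 5 of them under all 4 scalings, and none rose. Epha2, needed for regular packing of fibres, had signals of 1228, 1105 and 1446 at E16.5 and 793 and 648 at PN56 and fell by 0.79, and Epha5, Ephb4 and Efnb2 fell by 2.54, 1.66 and 1.42. Efna5, an ephrin also studied in the lens, had a difference of -0.21 (adjusted p = 0.303).

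Ion transport genes rose in 6 of 11 tested cases and fell in 2, 1 of the falls under all 4 scalings. Among all genes 25.0% rose and 30.7% fell. Of 13 on the array, 2 of them below the filter, 6 were higher on both PN56 arrays, 1 was lower and 6 overlapped. Over all tested genes 33.4% were higher and 37.0% lower in that way. Atp1b1, a beta subunit of the sodium pump, had signals of 315, 305 and 399 at E16.5 and 2579.5 and 3406 at PN56 and rose by 3.08 (SE 0.29, adjusted p = 2.4e-06), and Atp1b3 rose by 1.91. Clic5, a chloride intracellular channel protein, had signals of 90.4, 110.0 and 84.9 at E16.5 and 3546 and 3589 at PN56 and rose by 5.02. Slc12a2, the sodium, potassium and chloride cotransporter, rose by 1.30, and the calcium pump gene Atp2b1 fell by 1.46. Carriers of nutrients were lower in 9 of 18 cases and higher in 5. Slc7a5, a carrier of large amino acids, had signals of 15987, 14677 and 14435 at E16.5 and 1472 and 1997 at PN56 and fell by 3.12. The amino acid carriers Slc38a1 and Slc1a5 fell by 2.69 and 2.47, and Slc7a1 fell by 2.38. The carriers of osmolytes rose: Slc6a6, for taurine, had signals of 1224, 2549.6 and 1149 at E16.5 and 7682 and 11551 at PN56 and rose by 2.61, and Slc5a3, for inositol, had 475, 724 and 608 at E16.5 and 3304 and 3154 at PN56 and rose by 2.41.

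Sterols and sphingolipids are rich in fibre membranes. Of 16 sterol synthesis genes 3 rose and 6 fell. Idi1 and Sqle, of the pathway to cholesterol, fell by 1.73 and 1.06, and Dhcr7, a reductase of its last steps, rose by 1.01. Of 18 fatty acid and sphingolipid genes 10 rose and 5 fell, 9 and 4 of them under all 4 scalings. Scd1, the stearoyl-CoA desaturase, had signals of 104, 131 and 134 at E16.5 and 1793 and 2016 at PN56 and rose by 3.79, Elovl1, which makes very long chains, had 922, 883 and 837 at E16.5 and 3223 and 2634 at PN56 and rose by 1.71, and Srebf1, a lipid regulator, rose by 1.12. Elovl6 fell by 1.02. Fasn, the fatty acid synthase, had a difference of -0.30 (adjusted p = 0.204).

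Signals of fibroblast growth factor drive fibre differentiation, and their genes gave 5 of 13 tested higher and 5 lower. A further 2 were below the filter, and among all genes 25.0% were higher and 30.7% lower. The ligand gene Fgf1 had signals of 79, 142 and 111 at E16.5 and 1164 and 968 at PN56 and rose by 3.12, and the receptor gene Fgfr2 had 1063, 1067 and 1053 at E16.5 and 4253 and 3860.1 at PN56 and rose by 1.92. Dusp6, a target and brake of ERK signalling, had signals of 2567, 2272 and 1976 at E16.5 and 446 and 428 at PN56 and fell by 2.33. The receptor gene Fgfr1 fell by 1.02, with another probe set called higher, and Fgfr3 had a difference of 0.16. Notch genes, which help keep the growing lens epithelium, fell in 9 of 14 cases and rose in 1. The ligand gene Jag1 had signals of 12078, 11917 and 13649.8 at E16.5 and 3921 and 4293 at PN56 and fell by 1.61, the receptor gene Notch3 fell by 2.43, the targets Hes1 and Hey1 fell by 0.94 and 0.997, and Mfng, which modifies the receptors, fell by 3.30. Notch2 was the single rise, with signals of 398, 553 and 815 at E16.5 and 1444 and 1394 at PN56 and a difference of 1.31.

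The TGF-beta and BMP list gave 5 of 23 tested higher, 7 lower and 11 not passing, close to the 25.0% and 30.7% of all genes. The ligand gene Tgfb3 had signals of 152, 138 and 159 at E16.5 and 2427 and 2335 at PN56 and rose by 3.86, while Tgfb2 had a difference of 0.25 and Bmp4 one of 1.49, both not called. The receptor gene Bmpr1b fell by 2.42 and the target gene Id1 by 1.16. In the Wnt list 5 of 20 rose and 8 fell, where 25.0% and 30.7% of all genes did. Sfrp2, a secreted inhibitor, had signals of 864, 2187 and 628 at E16.5 and 59.9 and 34 at PN56 and fell by 4.13, Tcf7l2, a nuclear effector, had 1475, 1138 and 1313 at E16.5 and 136 and 138 at PN56 and fell by 3.11, and the receptor gene Fzd3 fell by 1.66. Wls, needed to secrete the ligands, and Dkk3 rose by 2.01 and 1.23.

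The circadian clock genes rose in 10 of 15 cases and fell in 1, each under all 4 scalings, with a median of 1.18. The clock is a daily loop in which output genes swing with the hour. Nr1d1 and Nr1d2, the repressors REV-ERB alpha and beta, had signals of 15.7, 12.6 and 26.1 at E16.5 and 233 and 419 at PN56 for the first and 993, 1272 and 773 at E16.5 and 5952 and 5667 at PN56 for the second, and they rose by 3.29 and 2.53. The output factors Tef, Dbp and Hlf rose by 2.52, 2.29 and 1.99, and Dbp signals were 723, 633 and 643 at E16.5 and 3041 and 3597 at PN56. Per2 had signals of 220.3, 217 and 292 at E16.5 and 166 and 372 at PN56, in which the ages overlapped, and a difference of 0.05 (adjusted p = 0.899). The labels give no hour of collection, and its part in these values was not tested.

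Markers of tissues that touch the lens were read on the same arrays. All 11 tested endothelial markers fell, with a median of -3.14, and their summed signal was 8867, 8619 and 6459 at E16.5 and 581 and 993 at PN56. None was under 45.1 at E16.5, and 5 and 3 were on the PN56 arrays. Cdh5, the cadherin of vessels, had signals of 1043, 1119 and 709 at E16.5 and 12.1 and 53.3 at PN56, and Plvap, of their diaphragms, had 1730.1, 1008 and 1213 at E16.5 and 55.3 and 46.8 at PN56, and they fell by 4.44 and 4.28. Pecam1, Tek and Kdr fell by 3.14, 2.71 and 2.01. Of 14 macrophage markers 11 fell and none rose, with sums of 10193, 10851 and 7976 against 2684 and 2979. Tyrobp, an immune signalling adaptor, had signals of 785, 762 and 513 at E16.5 and 5.7 and 25.1 at PN56 and fell by 4.53, and C1qa and Aif1 fell by 2.31 and 2.52. Of 8 erythroid markers on the array 4 were lower on both PN56 arrays than on every E16.5 array, 1 was higher and 3 overlapped. Over all tested genes 37.0% were lower and 33.4% higher in that way. Of the 8 markers, 3 were below the filter. Hbb-y, the embryonic globin, had signals of 2673, 2715 and 1194 at E16.5 and 2.4 and 12.4 at PN56, Alas2, of red cell heme synthesis, had 1909.9, 1283 and 1953 at E16.5 and 14.8 and 5.7 at PN56, and Slc4a1, the red cell anion exchanger, fell by 2.76.

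Photoreceptor and pigment cell markers were higher at PN56. Of 11 photoreceptor markers on the array, 3 of them below the filter, all 11 were higher on both PN56 arrays than on every E16.5 array, where 33.4% of tested genes were, and their sum was 399, 455 and 267 at E16.5 and 7176 and 6446 at PN56. Between 7 and 9 of the 11 were under the filter's signal of 45.1 on an E16.5 array and 1 on each PN56 array, so several were tested only through the later age. Gnat1, of the rod, had signals of 29.7, 8.1 and 3.9 at E16.5 and 2202 and 1688 at PN56, Sag, or rod arrestin, had 122, 42.7 and 40.8 at E16.5 and 1465 and 1639 at PN56, and Pde6b, of the rod phosphodiesterase, had 5, 6 and 3.6 at E16.5 and 511 and 469 at PN56. They rose by 6.12, 4.34 and 4.60, and Rcvrn and Nrl by 4.10 and 2.92. Of 9 pigment cell markers on the array, 2 of them below the filter, 7 were higher on both PN56 arrays and 2 overlapped, with sums of 2580, 2670 and 3641 against 9339 and 11158. Dct and Tyrp1, of melanin synthesis, had signals of 107, 219 and 472 at E16.5 and 3304 and 4140.4 at PN56 for the first and 44.3, 168 and 181 at E16.5 and 931 and 1393 at PN56 for the second, rises of 3.94 and 3.15, while Tyr had a difference of 0.72 (adjusted p = 0.352).

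Retinal progenitor and neuron markers set 1 array apart. Their sum over 12 genes was 612 on replicate 1 of E16.5 against 9578 and 5316 on the other 2, and 3809 and 3897 at PN56. On that replicate 7 of the 12 were under 45.1, and on the other E16.5 arrays none was. Of 12 tested, 1 rose, 2 fell and 9 did not pass. Snap25, of synaptic release, had signals of 11.5, 250.1 and 202 at E16.5 and 1601 and 1794 at PN56 and rose by 3.87, and Stmn2, of growing axons, had 93.5, 588 and 528 at E16.5 and 141 and 133 at PN56, in which the ages overlapped. Without that array 3027 genes were higher and 3825 lower. Surface and corneal epithelium markers summed to 965, 887 and 1039 at E16.5 and 5335 and 5802 at PN56 when Aldh3a1 was left out. Most of that sum was Perp, of epithelial junctions, with signals of 649.9, 547 and 758 at E16.5 and 4357 and 4559.6 at PN56. Of 9 such markers on the array 6 were tested and 3 rose, Aldh3a1, Krt19 and Perp, the last 2 by 3.18 and 2.76, and Krt5, the keratin of basal cells, had signals of 116, 63.5 and 105 at E16.5 and 89 and 61.9 at PN56 and did not pass. How much RNA of neighbouring tissue entered each pool, and its part in the changes of Aldh3a1, Gnat1, Il33 and other genes, was not tested. Of 4 sex-linked genes tested 1 fell and none rose, where 30.7% and 25.0% of all genes did. Their summed signal was 4130, 6631 and 8531 at E16.5 and 1847 and 2094 at PN56, most of it from the transcript of the inactive X chromosome. The sex make-up of the pools was not tested.

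**Figure D5:**
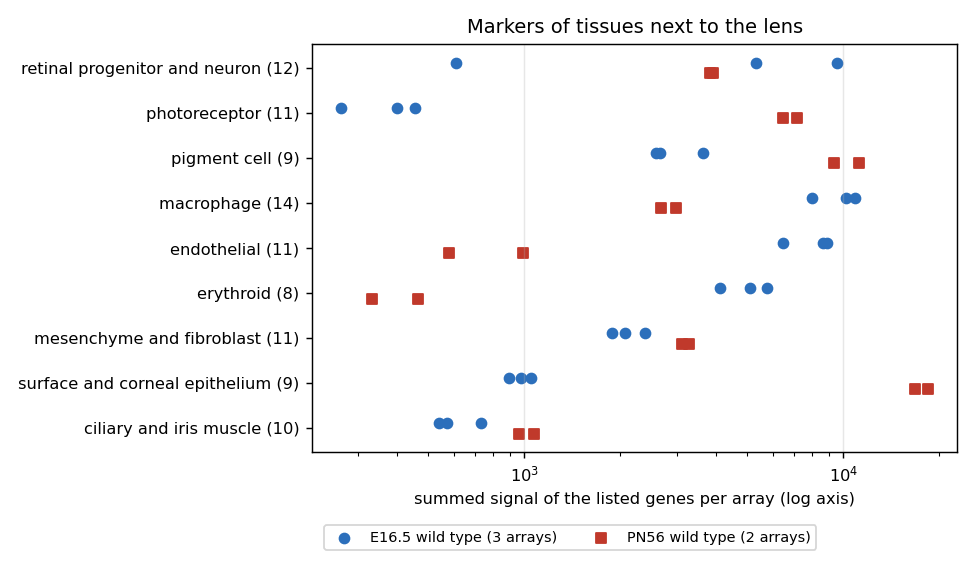
Summed signal of each marker list on each of the 3 E16.5 and 2 PN56 wild-type arrays (points, log axis). Endothelial, macrophage and erythroid sums are lower on both PN56 arrays, photoreceptor and pigment cell sums are higher there, and the retinal neuron sum of 612 on 1 E16.5 array stands apart from the other 4.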

How the data were processed

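Total RNA of whole lenses was labelled with a 3′ in vitro transcription kit and hybridised to Affymetrix 430 2 arrays, 1 array per pool. The values are linear intensities, which the authors deposited from GCOS 1.4, per the submitters' processing notes; on each array the mean without the outer 2% at each end is 500. No probe-level file was used. Replicates are independent pooled preparations, and the 5 wild-type arrays limit the precision.

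Of 45101 probe sets, 64 were controls, 34945 had 1 gene symbol, 932 several and 9160 none; 34741 matched RefSeq by gene number. Each gene took its brightest probe set. Signals were transformed as log2(signal + 16), genes at or above the 40th percentile of mean log2 signal (signal 45.1) were kept, and the 10 arrays were fitted with 4 group means in limma 3.58.1 (R 4.3.3; eBayes with trend; two-sided). Data were also simulated for 13440 genes, with 50 genes changed at each size given here and the others left equal between the ages. Of genes raised by 2, 1 and 0.585 on the log2 scale, 82%, 48% and 6% were recovered, and 30% of those lowered by 1. There were 88 calls, 5 of them false. In the measured data 55.7% of genes were called, which makes the adjusted threshold less strict, so these shares do not describe the power there.

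The text names the 15 largest rises and falls among called genes whose arrays did not overlap, all members of the crystallin, fibre membrane, fibre cytoskeleton and lens transcription factor lists, Klf4, the array controls, and from each other list a choice of its first 3 members and 3 of smallest p. The comparison, its members and the 58 lists (792 tested entries, 31 below the filter, 77 not analysed here) were chosen with earlier results of these data known, so list counts carry no test. Alternatives were other scalings, offsets, filters, probe set rules and fits, and each wild-type array left out. Deviations of same-numbered arrays from their group means had correlations of 0.016 and 0.02. With 2 PN56 arrays those deviations mirror each other, so these values cannot show whether pools were paired.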

Additional observations from a re-analysis of the deposited data

How the results depend on the processing

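Gja1 and Gapdh aside, 296 genes named in the text were followed through the other settings listed in the processing. Of these, 246 were called in the same direction in every setting that gave a value, the shift to the spikes aside. The counts of higher and lower genes stayed within 1.5 times under the 4 scalings, the offsets, filters, probe set rules, fits and array omissions, with 2820 to 3103 higher and 3668 to 3825 lower when 1 wild-type array was left out. Which of the counts was larger did depend on the setting. Median centring gave 3996 higher and 3478 lower and averaged probe sets gave 3443 and 2914, against 3357 and 4126 as deposited. The shift to the hybridisation spikes gave 903 higher and 8088 lower, and a log2 difference of at least 1 as a further condition gave 1945 and 2220. With the replicate block, 3202 were higher and 3938 lower; the labels share 2 numbers between the ages and nothing else ties those pools. For the reversals that follow, the cause was not tested. After the shift to the hybridisation spikes, the list median turned sign for denucleation and organelle loss (-0.44), cytosolic ribosomal proteins (-0.32), translation factors (-0.64), hypoxia response (-0.55), aldehyde and aldose metabolism (-0.58), iron copper and metallothionein genes (-0.57), heat shock proteins and chaperonin (-0.66), unfolded protein and integrated stress response (-0.85), cadherins catenins and junctions (-0.63), fatty acid and sphingolipid synthesis (-0.31) and ciliary and iris muscle markers (-0.48). Under the same setting, the genes of reversed sign were Aldh1a1 (-0.58), Cat (-0.17), Col4a1 (-0.85), Cryga (-0.59), Ctnnb1 (-0.42), Eef2 (-0.04), Fgfr3 (-0.74), Fth1 (-0.02), Gclm (-0.05), Klf5 (-0.70), Klf6 (-0.30), Pax6 (-0.21), Per2 (-0.84), Rbl2 (-0.19), Tfap2a (-0.02), Tgfb2 (-0.64), Tmod1 (-0.03), Tyr (-0.18) and Zeb2 (-0.57). With probe sets averaged per gene, the list median turned sign for fibre membrane channels and adhesion (0.59), lens epithelium (0.07), peroxiredoxins thioredoxins and superoxide defence (0.08) and Wnt signalling (0.34). Under the same setting, the genes of reversed sign were Actb (-0.30), Gja3 (0.53), Hnrnpab (-0.09), Meis1 (0.30), Ncam1 (0.65), Prox1 (0.60), Ptbp1 (0.31) and Zeb2 (-0.29). After quantile normalization, the list median turned sign for translation factors (-0.21) and aldehyde and aldose metabolism (-0.14). Under the same setting, the genes of reversed sign were Aldh1a1 (-0.14), Col4a1 (-0.44), Cryab (-0.11), Cryga (-0.25), Crygf (-0.34), Ctnnb1 (-0.03), Klf5 (-0.27) and Per2 (-0.08). After cyclic loess, the genes of reversed sign were Col4a1 (-0.13), Klf5 (-0.04) and Per2 (-0.01). After median centring, the genes of reversed sign were Rps6 (0.10). With the probe set brightest on the wild-type arrays, the genes of reversed sign were Zeb2 (-1.33). Over the 5 arrays left out in turn, values of both signs were found, with a range of -0.06 to 0.17 for unfolded protein and integrated stress response, -0.03 to 0.15 for Col4a1, -0.49 to 0.59 for Per2, -0.32 to 0.04 for Prox1 and -0.26 to 1.70 for Tyr. Precision is limited by 2 adult arrays, and signals near the filter's 45.1 lie close to background.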

Other observations

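Cytoskeleton genes outside the fibre lists moved in both directions, as did all genes, of which 25.0% were higher and 30.7% lower. Of 13 microtubule genes 5 were higher, 3 of them under all 4 scalings, and 4 lower. The tubulin gene Tuba4a had signals of 715, 719 and 508 at E16.5 and 10472 and 9665 at PN56 and rose by 3.94, and Tubb4a had 1222, 1334 and 1495 at E16.5 and 382 and 371 at PN56 and fell by 1.80. Of 15 actin, myosin and tropomyosin genes 6 were higher, 5 of them under all 4 scalings, and 6 lower. Acta2, the actin of smooth muscle, had signals of 1000.2, 799.6 and 919.6 at E16.5 and 29598 and 25801 at PN56 and rose by 4.91, and Pfn1, which feeds actin monomers to growing filaments, had 21019, 19804 and 21707 at E16.5 and 2776 and 3799 at PN56 and fell by 2.68. Other ciliary and iris muscle markers rose in 2 of 7 tested cases, 1 of them under all 4 scalings, and their summed signal was 538, 572 and 729 at E16.5 and 1069 and 962 at PN56.

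Of 9 targets of p53 5 were higher, 4 of them under all 4 scalings, and 4 lower. Ccng1 had signals of 5756, 5086 and 3869.9 at E16.5 and 27327 and 24404 at PN56 and rose by 2.41, Mdm2, which degrades p53, rose by 1.09 and Phlda3 by 1.59, while Pmaip1, a trigger of cell death, fell by 2.002. Immediate early genes gave 2 of 10 higher and 4 lower: Jun had signals of 1613, 1738 and 1868 at E16.5 and 302 and 440.0 at PN56 and fell by 2.20, and Ier2 fell by 2.08. Of 14 interferon and antigen presentation genes 6 were higher, 4 of them under all 4 scalings, and 2 lower. H2-Aa, of class II presentation, had signals of 70.9, 35.3 and 19.3 at E16.5 and 433 and 455 at PN56 and rose by 3.09, and B2m, of class I, had 3022, 2837 and 2006 at E16.5 and 1202 and 1434 at PN56 and fell by 0.97. Mesenchyme and fibroblast markers gave 5 of 10 tested higher, 3 of them under all 4 scalings, and 3 lower, with sums of 1884 to 2384 at E16.5 and 3292 and 3117 at PN56. Prrx1 rose by 2.90 and Pdgfrb by 1.32, while Foxc1 fell by 2.23. Col3a1, a fibrillar collagen, had signals of 371, 396 and 414 at E16.5 and 3.3 and 27.7 at PN56 and fell by 3.82.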
